A study of Mus musculus with 15 samples.

Results

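The glucose transporter Slc2a1 and 9 glycolytic enzymes, Hk2, Hk3, Pfkl, Pfkp, Aldoa, Gapdh, Pgk1, Pkm and Ldha, were followed by RNA-seq in myeloid cells sorted from mouse brain. They were chosen by gene symbol as 10 of the 38924 genes in the files, and each symbol named 1 row. All 10 passed the filter on low counts, which kept 14967 genes. The mice were wild type male C57BL/6J mice killed at 12 months of age. They ate either a control chow diet (CD) or, from 2 months of age, a western diet (WD), which is rich in fat and sugar. Cells positive for CD11b and negative for the T cell protein CD3e were separated by FACS into CD45hi and CD45lo cells. This gave 4 libraries of CD-fed CD45hi cells, 4 of CD-fed CD45lo cells, 3 of WD-fed CD45hi cells and 4 of WD-fed CD45lo cells. CD11b is an integrin subunit of myeloid cells, and CD45 is a phosphatase of all leukocytes that resident microglia carry at low levels. A CD45hi gate can therefore hold blood-derived and border cells as well as microglia.

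Glycolysis converts glucose to pyruvate in the cytosol and yields ATP without oxygen. Glucose enters through facilitative transporters such as the SLC2A1 protein (GLUT1), hexokinases trap it as glucose 6-phosphate, and phosphofructokinase commits it to the pathway. Lactate dehydrogenase turns the pyruvate into lactate, which monocarboxylate transporters export. Activated macrophages, microglia and neutrophils are known to draw heavily on this pathway, and hypoxia-inducible factor raises the transcription of many of its genes.

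The promoters are shown for the members that differed between the cell types, Pfkp and Pgk1, and for the Ldha start with the most matches to the core of the hypoxia response element. Each run is the 250 bases before a RefSeq transcription start (build GRCm38.p6), 5′ to 3′ on the gene's strand. Capitals mark the letters ACGTG or the same letters on the other strand. The sequence of Pfkp is chr13:6648772-6649021 on the minus strand, that of Pgk1 is chrX:106186850-106187099 on the plus strand, and that of Ldha is chr7:46845554-46845803 on the plus strand.
Pfkp: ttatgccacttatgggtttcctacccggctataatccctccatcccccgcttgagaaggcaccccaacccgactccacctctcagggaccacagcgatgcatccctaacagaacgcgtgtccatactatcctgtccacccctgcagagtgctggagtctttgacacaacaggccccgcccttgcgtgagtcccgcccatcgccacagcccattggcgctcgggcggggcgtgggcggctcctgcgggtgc
Pgk1: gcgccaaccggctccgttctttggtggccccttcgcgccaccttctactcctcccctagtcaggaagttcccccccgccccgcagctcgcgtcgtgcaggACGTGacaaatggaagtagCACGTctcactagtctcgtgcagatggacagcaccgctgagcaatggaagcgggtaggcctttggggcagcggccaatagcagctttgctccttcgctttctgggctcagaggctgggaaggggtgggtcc
Ldha: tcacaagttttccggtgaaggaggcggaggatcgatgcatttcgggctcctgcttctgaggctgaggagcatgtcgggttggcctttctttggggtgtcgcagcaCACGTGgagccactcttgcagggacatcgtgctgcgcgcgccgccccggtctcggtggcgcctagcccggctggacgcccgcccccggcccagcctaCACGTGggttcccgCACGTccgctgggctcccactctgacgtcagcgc
The Pfkp window held no match, the Pgk1 window held 2, and this Ldha window held 5. A palindrome CACGTG counts on both strands, and the Ldha window held 2 of these. Across the 10 members, which all had an entry, 8 of 14 windows and 7 of the genes held at least 1 match, and 16.6% of all 32851 windows in the table did. The Aldoa windows chr7:126799255-126799504 and chr7:126799179-126799428 overlap and hold the same match, so this site counts in both. The background is per window, and none was computed per gene. The GC box GGGCGG, searched on both strands, was in 8 of the 14 windows and in 32.7% of all windows. A match describes the letters only and is not evidence of a bound factor. In the GENCODE M21 annotation (build GRCm38, the same build as the authors' mm10) Pfkp lies at chr13:6579768-6648777, Pgk1 at chrX:106187100-106203699 and Ldha at chr7:46841475-46855627. The Ldha window shown therefore lies within the bounds of the annotated gene, before one of its later starts.

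The libraries held 11951412 to 17912272 expected counts, and 3 counts corresponded to 0.156 to 0.282 cpm, the count relative to library size. All cpm values were scaled by TMM, a normalization to the bulk of genes. The gate showed in the RNA, since Ptprc, which encodes CD45, stood at 778 to 1290 cpm in CD45hi and at 356 to 488 cpm in CD45lo libraries. Itgam, which encodes CD11b, stood at 1510 to 2100 and 1920 to 2210 cpm. On the second principal component of all genes tested, which carried 12.4% of the variance, WD-fed CD45hi replicate 1 scored 175 and CD-fed CD45hi replicate 4 scored -94.0. The other 13 libraries lay between -28.4 and 5.44, so results that rest on these 2 libraries are given with and without them. Mitochondrially encoded genes took 17.7% to 20.5% of the counts in CD45hi and 7.99% to 10.9% in CD45lo libraries.

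Of the 10 members, the phosphofructokinase subunit Pfkp passed the test as higher in CD45hi than in CD45lo cells on both diets, and Pgk1, which makes the first ATP of glycolysis, on the WD. The Pfkp call passed in 21 of 29 alternative settings on the CD and in 20 of 29 on the WD, and limma-voom did not make it on either diet (FDR = 0.0519 and 0.253). On the WD the Pfkp libraries overlapped, and the log2 fold change fell from 3.29 to 0.76 without 1 library. Most other members had higher means in CD45hi cells but did not pass the test. Hk2, the main hexokinase RNA of both cell types, had the lower mean there. In the fit across all genes (edgeR's quasi-likelihood test with Benjamini-Hochberg adjustment, FDR limit 0.05), Pfkp was the 1 of 10 members higher on the CD, where 5.95% of all genes were called higher. On the WD it was Pfkp and Pgk1, 2 of 10, where 6.22% of all genes were called higher. At an unadjusted p under 0.05, 5 of 10 were higher on the CD (background 11.8%). On the WD 4 were higher (background 13.3%) and 1, Hk2, was lower (background 11.2%). A stricter test asks whether a change exceeds 1.5-fold (glmTreat). It called none of the 10 on either diet (unadjusted p under 0.05 for 1 and 2 of them), whereas it called 3.98% of all genes on the CD and 5.18% on the WD in either direction. Limma-voom with a 1.5-fold limit also called 0. With the fold limit applied only after a test for any change, a less strict rule, edgeR called 1 member on the CD (Pfkp) and 2 on the WD (Pfkp and Pgk1), among 1162 and 1335 genes in all. By that rule DESeq2 called 3 on the CD (Ldha, Pfkp and Pkm) and 3 on the WD (Slc2a1, Pfkp and Pgk1), among 1794 and 2296 genes. The median log2 fold change of the 10 was 0.50 on the CD and 0.52 on the WD, and that of all genes tested was 0.04 and 0.00.

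**Figure D1:**
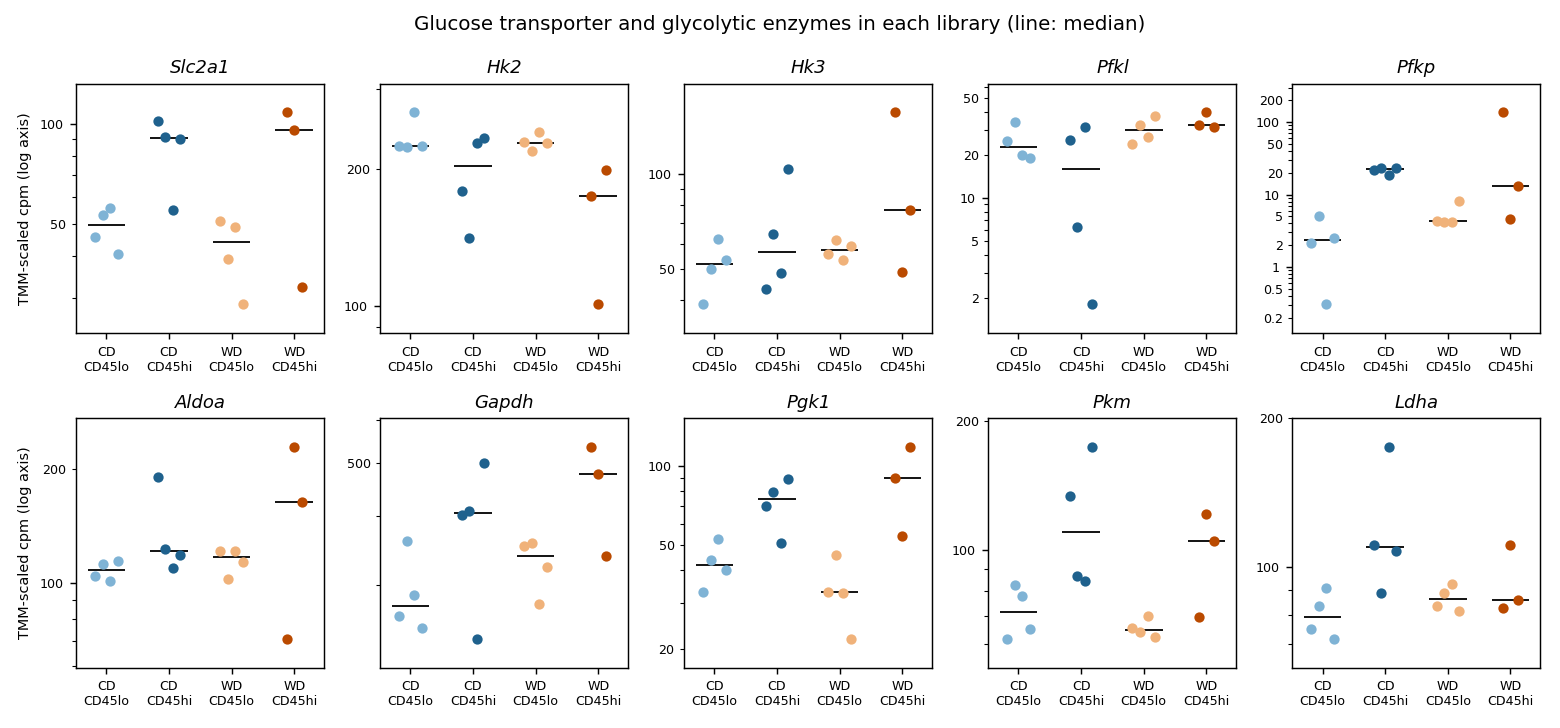
Level of each member in every library as TMM-scaled cpm on a log axis, by diet and cell type, with 1 point per library and a line at the group's median. Between the cell types, Pfkp and Pkm do not overlap on the CD nor Hk2 and Pgk1 on the WD, and single CD45hi libraries stand far from their group in Pfkl and Pfkp.

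Slc2a1, the GLUT1 glucose transporter, stood at 45.8, 53.1, 55.8 and 40.5 cpm in the CD-fed CD45lo libraries and at 102, 91.1, 55.2 and 89.7 cpm in the CD-fed CD45hi libraries. On the WD it stood at 51.1, 39.1, 48.8 and 28.7 cpm in CD45lo and at 108, 95.9 and 32.4 cpm in CD45hi cells. On each diet all but 1 of the CD45hi libraries lay above every CD45lo library. Its log2 fold change, CD45hi over CD45lo, was 0.79 ± 0.327 (SE) on the CD (edgeR quasi-likelihood FDR = 0.173) and 0.91 ± 0.349 on the WD (FDR = 0.118), so neither passed the test. Without WD-fed CD45hi replicate 3, the low library, the WD value was 1.28 (FDR = 0.00884), and without replicate 1 it was 0.61 (FDR = 0.324).

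Hk2, the hexokinase that docks on mitochondria and is inducible in many tissues, varied little in CD45lo cells. It measured 225, 224, 267 and 225 cpm on the CD and 230, 220, 242 and 229 cpm on the WD. In CD45hi cells it measured 179, 141, 229 and 235 cpm on the CD and 175, 101 and 199 cpm on the WD. The WD-fed groups did not overlap, with all 3 CD45hi libraries below the 4 CD45lo libraries, as was the case for 13.4% of all genes tested. The difference was -0.54 ± 0.220 (SE, FDR = 0.138) on the WD and -0.26 ± 0.201 (FDR = 0.536) on the CD, both short of the threshold. When the libraries were scaled by total count alone, the WD value was -0.85 (FDR = 0.0178), with a median of all genes of -0.31.

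Hk3, a hexokinase that is characteristic of myeloid blood cells, was measured at 38.8, 50.3, 62.5 and 53.5 cpm in CD-fed CD45lo cells and at 43.4, 64.6, 48.7 and 104 cpm in CD-fed CD45hi cells. In WD-fed mice it ranged from 53.6 to 62.0 cpm in CD45lo cells and was 157, 49.1 and 77.3 cpm in CD45hi cells. The 2 highest values, 104 and 157 cpm, came from the 2 libraries that stood apart. Differences between the cell types were 0.34 ± 0.332 on the CD (FDR = 0.644) and 0.71 ± 0.355 on the WD (FDR = 0.230), and 0.03 and 0.13 without these 2 libraries.

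Phosphofructokinase is a tetramer of liver (Pfkl), muscle (Pfkm) and platelet (Pfkp) subunits. Pfkp stood at 2.18, 5.08, 0.307 and 2.55 cpm in CD-fed CD45lo cells and at 21.5, 23.4, 18.7 and 23.2 cpm in CD-fed CD45hi cells. In cpm these groups were far apart, and the CD45hi libraries were close to each other. Per transcript length (TPM) the same CD45hi libraries ran more widely, from 8.51 to 45.4. The log2 fold change was 3.09 ± 0.863 (SE), an 8.53-fold difference (FDR = 0.0344; FDR of the 1.5-fold test 0.0702). The smallest value, 0.307 cpm, rested on 5 counts. The call did not survive leaving out any 1 of CD-fed CD45hi replicate 1 (FDR = 0.0511), 2 (FDR = 0.0550) or 4 (FDR = 0.0568) or CD-fed CD45lo replicate 1 (FDR = 0.101), 3 (FDR = 0.0855) or 4 (FDR = 0.0933), while the log2 fold change stayed between 2.73 and 3.66 over the 15 such fits.

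In WD-fed mice Pfkp stood at 4.33, 4.23, 4.23 and 8.18 cpm in CD45lo cells and at 136, 4.63 and 13.2 cpm in CD45hi cells. The highest CD45lo library lay above the lowest CD45hi library, and replicate 1 of the CD45hi cells stood far above the other 2. This log2 fold change was 3.29 ± 0.895 (FDR = 0.0270), but 0.76 (FDR = 0.565) without WD-fed CD45hi replicate 1. The FDR was 0.0797, 0.0778 and 0.0787 without WD-fed CD45lo replicate 1, 2 or 3. The expected count of Pfkp was fractional in all 15 libraries, meaning that some of its reads were shared among genes by the authors' counting, as was that of Gapdh.

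Pfkl varied most among the CD-fed CD45hi libraries, at 25.6, 6.29, 31.4 and 1.80 cpm. It lay between 19.0 and 34.1 cpm in the CD-fed CD45lo libraries, between 23.9 and 37.5 cpm in the WD-fed CD45lo libraries, and at 32.5, 39.7 and 31.4 cpm in the WD-fed CD45hi libraries. The difference between the cell types was -0.60 ± 0.583 on the CD (FDR = 0.651) and 0.19 ± 0.625 on the WD (FDR = 0.896). Per transcript length, in TPM, Pfkl made up 71.2% to 89.2% of the 3 subunits in each CD-fed CD45lo library and 74.5% to 91.8% in each WD-fed one. Pfkp made up 4.22% to 9.13% and 6.61% to 12.8%. In CD-fed CD45hi cells the share of Pfkp was 44.9%, 81.6%, 30.8% and 93.0%, and in WD-fed CD45hi cells it was 79.7%, 16.4% and 35.8%. In TPM, the Pfkp share of every CD45hi library thus exceeded that of every CD45lo library on the same diet. The WD-fed groups overlapped in cpm, where CD45hi replicate 2 held 4.63 cpm of Pfkp and 39.7 cpm of Pfkl. TPM uses effective lengths that differ between libraries, so the separation of the WD-fed shares was not read as a difference in RNA. Pfkm made up 0% to 20.6% in any library.

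**Figure D2:**
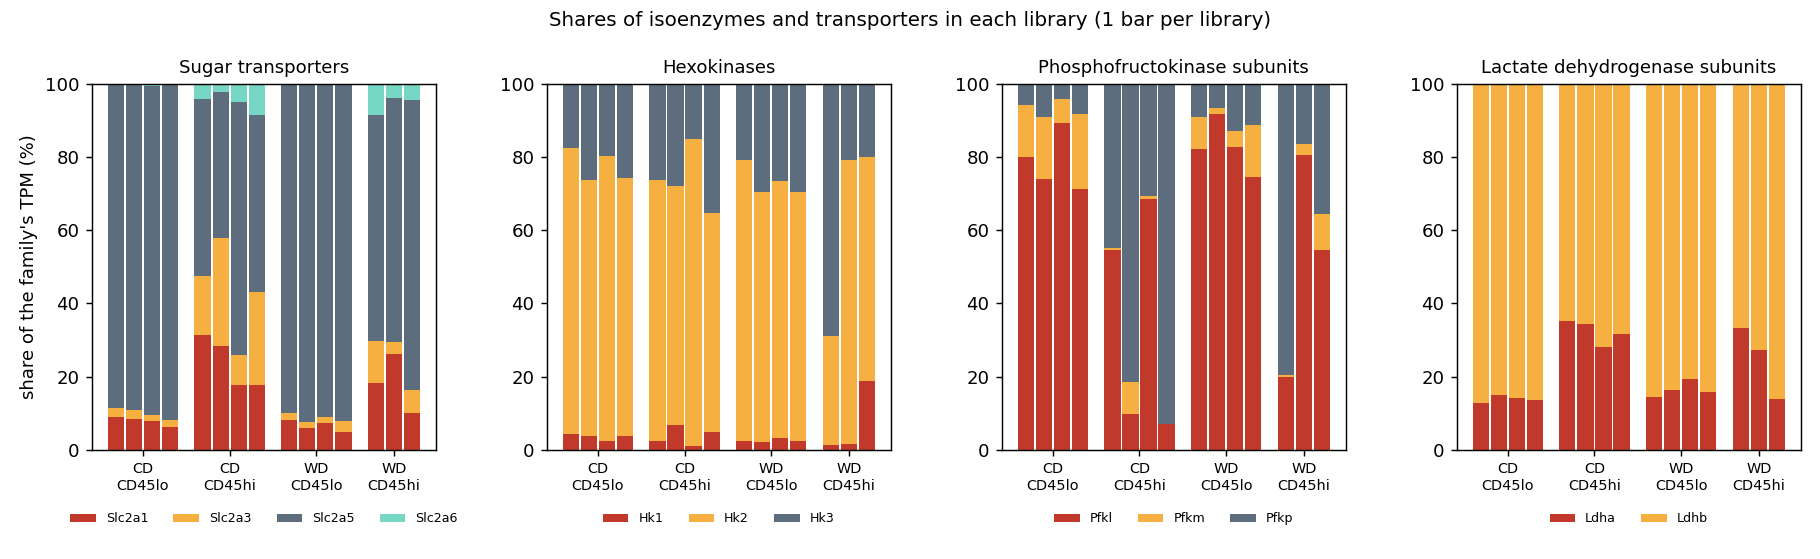
Share of each gene in the summed TPM of its family, in percent, with 1 bar per library grouped by diet and cell type, for 4 sugar transporters, 3 hexokinases, 3 phosphofructokinase subunits and 2 lactate dehydrogenase subunits. The Pfkp and Slc2a1 segments are wider in every CD45hi library than in any CD45lo library of the same diet. Slc2a5 fills 88.3% to 92.1% of the transporter bars of CD45lo cells and less in CD45hi cells. A lower Slc2a5 alone widens the Slc2a1 segment.

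Aldoa, the aldolase that splits fructose 1,6-bisphosphate, measured 104, 112, 101 and 114 cpm in CD-fed CD45lo cells and 190, 123, 109 and 118 cpm in CD-fed CD45hi cells. On the WD the CD45lo libraries lay between 102 and 121 cpm, and the CD45hi libraries measured 70.9, 228 and 163 cpm. The value of 70.9 cpm was that of WD-fed CD45hi replicate 1, which was the highest library for Hk3 and Pfkp. Log2 fold changes were 0.32 ± 0.268 on the CD (FDR = 0.579) and 0.43 ± 0.287 on the WD (FDR = 0.392). Without that library the WD value was 0.77 (FDR = 0.0386), and without WD-fed CD45hi replicate 2, the highest library, it was 0.03 (FDR = 0.958). With both libraries that stood apart left out, 3 members passed on the WD, namely Aldoa (0.77, FDR = 0.0278), Pgk1 (1.36, FDR = 0.0155) and Pkm (0.79, FDR = 0.0277), and Pfkp did not (0.76, FDR = 0.537).

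Gapdh, the glyceraldehyde 3-phosphate dehydrogenase often used as a reference gene, did not pass the test on either diet. It measured 263, 361, 287 and 250 cpm in CD-fed CD45lo and 402, 409, 239 and 500 cpm in CD-fed CD45hi libraries. In WD-fed mice it measured 353, 357, 277 and 324 cpm in CD45lo and 535, 477 and 338 cpm in CD45hi libraries. The log2 fold change was 0.42 ± 0.204 on the CD (FDR = 0.268) and 0.46 ± 0.219 on the WD (FDR = 0.209). By total count alone it was 0.18 and 0.14. On the TPM scale the CD-fed mean was 775 ± 177 (SD, n = 4) in CD45hi and 828 ± 104 (n = 4) in CD45lo cells, opposite in direction to the cpm.

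Pgk1, phosphoglycerate kinase, measured 33.0, 45.6, 32.8 and 21.8 cpm in WD-fed CD45lo cells and 90.0, 53.8 and 118 cpm in WD-fed CD45hi cells. These groups did not overlap, with the CD45hi cells higher, as in 10% of all genes tested. The log2 fold change was 1.39 ± 0.315 (SE), a 2.62-fold difference (edgeR FDR = 0.00865; FDR of the 1.5-fold test 0.0508). It remained below the FDR limit without any single library, at log2 fold changes of 1.11 to 1.64. Of 29 alternative settings it passed in 28 and missed with a replicate block by file-name numbers (edgeR FDR = 0.099). On the CD it measured 32.9, 43.8, 52.4 and 39.9 cpm in CD45lo and 70.2, 79.5, 50.7 and 89.1 cpm in CD45hi cells. There the lowest CD45hi library lay just under the highest CD45lo library, and the log2 fold change of 0.78 ± 0.294 did not pass (FDR = 0.131). The difference between the diets in this effect was 0.61 ± 0.430 (interaction FDR = 0.687).

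Pkm, which encodes the pyruvate kinase of most tissues and makes the last ATP of the pathway, measured 61.8, 82.6, 77.9 and 65.3 cpm in CD-fed CD45lo and 134, 87.0, 84.5 and 174 cpm in CD-fed CD45hi cells. The CD-fed groups did not overlap, which held for 8.26% of all genes tested with CD45hi higher and for 8.22% with CD45hi lower. Of the members, Pfkp and Pkm were in the first set and none in the second. The log2 fold change of Pkm was 0.74 ± 0.245 on the CD (FDR = 0.0793). It passed without CD-fed CD45hi replicate 2 (0.86, FDR = 0.0439) or 3 (0.87, FDR = 0.0362) or without WD-fed CD45hi replicate 1 (0.74, FDR = 0.0492). Without CD-fed CD45hi replicate 4 it was 0.50 (FDR = 0.236). On the WD, Pkm lay between 62.4 and 70.1 cpm in CD45lo and at 69.5, 121 and 105 cpm in CD45hi cells, with a log2 fold change of 0.59 ± 0.262 (FDR = 0.177).

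Ldha, the lactate dehydrogenase subunit that favours making lactate, measured 75, 83.7, 91.0 and 71.7 cpm in CD-fed CD45lo and 111, 88.8, 175 and 108 cpm in CD-fed CD45hi cells. Its log2 fold change was 0.59 ± 0.209 on the CD (FDR = 0.105). It was 0.71 (FDR = 0.0462) without CD-fed CD45hi replicate 2 and 0.35 (FDR = 0.290) without replicate 3, the highest library. On the WD the CD45lo libraries lay between 81.5 and 92.7 cpm and the CD45hi libraries at 82.8, 111 and 86.0 cpm, with a log2 fold change of 0.10 ± 0.225 (FDR = 0.840). That value was -0.21 when scaled by total count alone. As a share of both subunits' TPM, Ldha made up 12.7% to 14.9% in CD-fed CD45lo and 28.0% to 35.1% in CD-fed CD45hi cells, without overlap. In WD-fed mice the shares overlapped, at 14.3% to 19.4% in CD45lo cells and 33.3%, 27.2% and 14% in CD45hi cells. Ldhb, the subunit that favours using lactate, measured 225 to 260 cpm in CD-fed CD45lo and 84.4 to 192 cpm in CD-fed CD45hi cells (log2 fold change -0.96 ± 0.291, FDR = 0.0512).

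**Figure D3:**
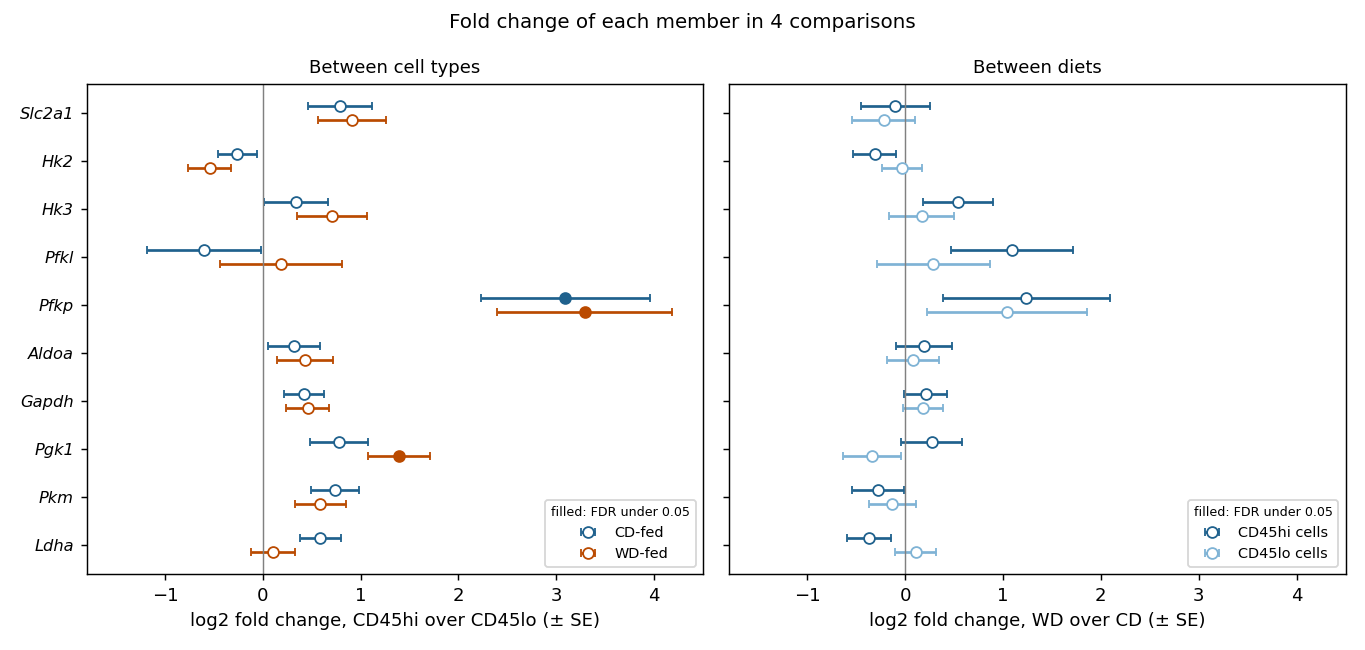
Log2 fold change of each member with its standard error, CD45hi over CD45lo in CD-fed and WD-fed mice on the left and WD over CD in CD45hi and CD45lo cells on the right, where a filled point has an FDR under 0.05. The filled points are Pfkp on both diets, at 3.09 and 3.29, and Pgk1 on the WD at 1.39, and no point is filled in the comparison of the diets.

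These cell types differed in composition as well. The summed cpm of 10 microglial markers was 7770 to 9370 in CD45hi and 15900 to 20500 in CD45lo libraries, and the 1.5-fold test called 10 of 10 lower on the CD and 7 of 10 on the WD. Neutrophil markers summed to 1360 to 3440 against 569 to 851 cpm, with 6 of 8 called higher on each diet. Most of the CD45lo sum was Csf3r, which was not called. Csf3r averaged 551 cpm in CD45lo and 730 cpm in CD45hi cells on the CD, and 684 and 649 cpm on the WD. Monocyte markers summed to 445 to 1000 against 28.0 to 115 cpm, with 5 and 4 of 6 called higher. Border macrophage markers summed to 616 to 2340 against 53.6 to 203 cpm, with 5 of 5 called higher on each diet. Dissociation stress genes summed to 4140 to 5630 against 1670 to 4520 cpm, with none of 8 called. Among defining markers of other cells, Ly6g of neutrophils averaged 2.86 cpm or less in each group and Cldn5 of endothelium 1.64 cpm or less. Their part in the member differences was not tested. Of the remaining lists, 2 of 5 tested lymphocyte markers were called higher on the CD and 3 on the WD, 1 of 5 endothelial markers was called higher on each diet, 1 of 4 astrocyte markers lower on the CD and 1 of 4 oligodendrocyte markers higher on the WD. No dendritic cell, pericyte, neuron or erythrocyte marker was called. Cd3e, which defines T cells, was at 0 in 14 of the 15 libraries. In sorted bulk cells, more cells of one type and more RNA per cell cannot be told apart.

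Levels between members were compared as TPM, which divides by transcript length. Gapdh was the most abundant in every group, at 828 ± 104 (SD, n = 4) in CD-fed CD45lo, 775 ± 177 (n = 4) in CD-fed CD45hi, 904 ± 109 (n = 4) in WD-fed CD45lo and 1060 ± 222 (n = 3) in WD-fed CD45hi cells. In CD45lo cells the order after Gapdh was Hk2, Aldoa, Ldha, Hk3, Pkm, Pgk1, Slc2a1, Pfkl and Pfkp on both diets. On the CD, the libraries of Hk2 and Aldoa overlapped, as did those of neighbours from Hk3 through Slc2a1, and Pfkl (16.5 ± 6.41) and Pfkp (1.58 ± 1.12) each stood clear below. On the WD, Pkm through Pfkl overlapped with their neighbours and Pfkp (3.02 ± 0.689) stood clear. In CD45hi cells every neighbour below Gapdh overlapped with the next on both diets. Hk2 was at 146 ± 72.8 TPM in CD-fed and 110 ± 22.1 TPM in WD-fed CD45hi cells, against 201 ± 50.5 and 200 ± 14.8 TPM in CD45lo cells.

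The 10 members together made up 1520 ± 156, 1460 ± 141, 1620 ± 147 and 1740 ± 320 TPM in CD-fed CD45lo, CD-fed CD45hi, WD-fed CD45lo and WD-fed CD45hi cells, and their ranges overlapped. By cpm, which was scaled to the bulk of genes, the sum was 1041 to 1456 in CD45hi and 873.7 to 1050 in CD45lo libraries. The group sums of cpm and TPM thus ordered the CD-fed cells differently. The TPM means of Aldoa were also lower in CD45hi than in CD45lo cells on both diets (142 against 157 and 153 against 167), as was that of Hk3 on the CD (53.9 against 60.0) and those of Ldha (91.3 against 121) and Pfkl (19.4 against 26.2) on the WD, while their cpm means were higher. TPM carries no TMM scaling and uses effective lengths that differ between libraries, so the differences between groups were read from the counts.

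**Figure D4:**
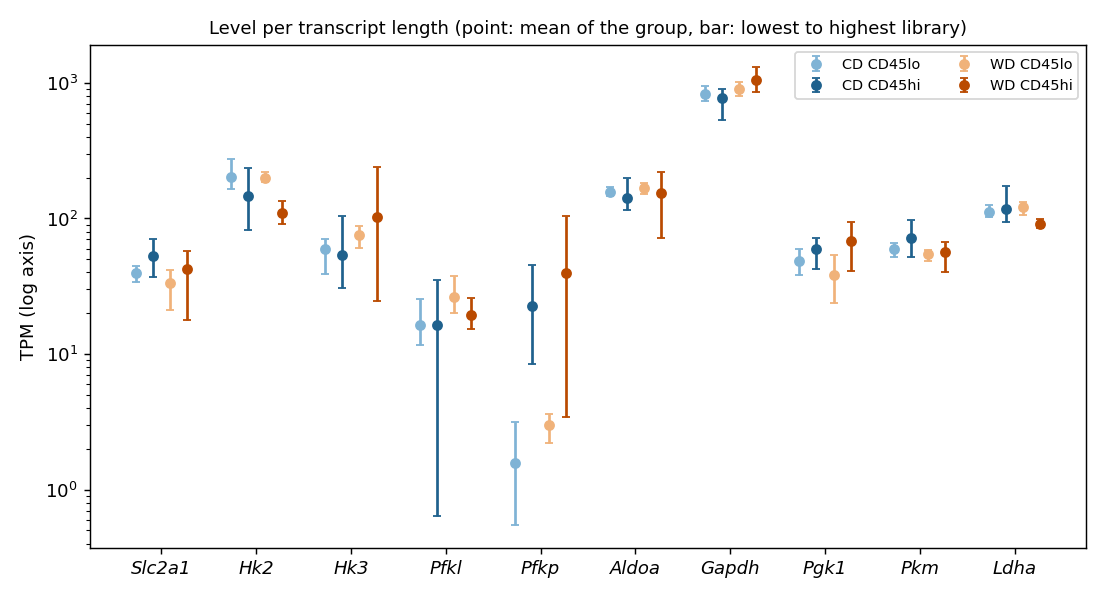
TPM of each member on a log axis, where points are group means and bars run from the lowest to the highest library of the group. Gapdh lies between 533 and 1300 TPM in all 4 groups, Pfkp lies at or under 3.62 TPM in both CD45lo groups, and the longest bars are those of Pfkl in CD-fed CD45hi cells (0.64 to 35.3 TPM) and Pfkp in WD-fed CD45hi cells (3.43 to 105 TPM).

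Among hexokinases the shares of both cell types overlapped. Hk2 held 74.1% ± 4.46 (SD, n = 4) of the TPM of Hk1, Hk2 and Hk3 in CD-fed CD45lo, 70.1% ± 10.2 (n = 4) in CD-fed CD45hi, 70.7% ± 4.05 (n = 4) in WD-fed CD45lo and 56.2% ± 24.3 (n = 3) in WD-fed CD45hi cells. In 1 WD-fed CD45hi library, replicate 1, Hk3 held 69.0% and Hk2 29.8%. Without that library the mean share of Hk3 in this group was 20.4%, against 36.6% with it. The shares of sugar transporters were apart. Slc2a1 held 6.29% to 8.91% of the TPM of Slc2a1, Slc2a3, Slc2a5 and Slc2a6 in CD-fed CD45lo cells and 17.6% to 31.3% in CD-fed CD45hi cells. In WD-fed mice it held 4.86% to 8.13% in CD45lo and 10.1% to 26.2% in CD45hi cells. Slc2a5 made up most of this sum in CD45lo cells and was lower in CD45hi cells, so the Slc2a1 share can rise without more Slc2a1 RNA. The library with the 10.1% share held 32.4 cpm of Slc2a1, within the 28.7 to 51.1 cpm of the WD-fed CD45lo libraries. Slc2a1 itself did not pass the test on either diet.

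The other genes of sugar uptake and glycolysis were taken from lists. Among 10 other sugar and monocarboxylate transporters, 9 could be tested, and the 1.5-fold test called 3 higher and 1 lower in CD45hi cells on the CD, and 1 higher and 2 lower on the WD. Their median log2 fold change was 0.50 on the CD and -0.56 on the WD. Slc2a5, the fructose transporter that marks microglia, was lower in CD45hi cells on both diets. It stood at 262, 332, 323 and 312 cpm in CD45lo and 106, 85.0, 119 and 98.4 cpm in CD45hi cells on the CD, a log2 fold change of -1.59 ± 0.153 (FDR of the 1.5-fold edgeR test 6.96e-05), and on the WD the change was -1.65 ± 0.169 (FDR = 1e-04). Slc2a6, a lysosomal sugar transporter of macrophages, was higher on both diets, by 3.41 ± 0.727 (FDR = 0.0130) and 3.85 ± 0.764 (FDR = 0.00674). It stood at 0.454 to 2.95 cpm in CD-fed CD45lo and 6.13 to 34.4 cpm in CD-fed CD45hi libraries.

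Slc2a3, the high-affinity glucose transporter GLUT3, was higher in CD-fed CD45hi cells, at 113, 177, 70.1 and 231 cpm against 32.0, 37.0, 25.9 and 28.5 cpm (log2 fold change 2.26 ± 0.411, 1.5-fold FDR = 0.00698). On the WD its groups overlapped (1.15 ± 0.422, FDR = 0.242), and without both libraries that stood apart the WD value was 0.37. Slc16a3, which encodes the lactate exporter MCT4, was higher on the CD at 32.9 to 92.4 against 5.73 to 16.4 cpm (2.52 ± 0.510, 1.5-fold FDR = 0.0125). On the WD it differed by 1.83 ± 0.524 (1.5-fold FDR = 0.0954), and by 1.22 without WD-fed CD45hi replicate 1. Slc2a8, an intracellular hexose transporter, was lower in WD-fed CD45hi cells, at 0.188, 0.470 and 1.99 cpm against 6.83 to 14.1 cpm (-3.44 ± 0.878, 1.5-fold FDR = 0.0347). The lowest of these values rested on 2 counts, and its CD-fed groups overlapped (0.53 ± 0.700).

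Of 18 other glycolytic enzymes 13 could be tested, and the 1.5-fold test called none on either diet. The median log2 fold change was -0.36 on the CD and 0.57 on the WD. Gpi1, which turns glucose 6-phosphate into fructose 6-phosphate, did pass the test for any change on both diets. It stood at 57.5 to 68.4 cpm in CD45lo and 86.5 to 183 cpm in CD45hi cells on the CD (1.04 ± 0.211, FDR = 0.00394), and at 50.8 to 59.0 and 109 to 128 cpm on the WD (1.11 ± 0.224, FDR = 0.00370). Enolase Eno1 had log2 fold changes of 0.41 ± 0.208 and 0.39 ± 0.223, and triose-phosphate isomerase Tpi1 of 0.18 ± 0.432 and 1.10 ± 0.464, short of the threshold (FDR = 0.291, 0.308, 0.883 and 0.155).

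**Figure D5:**
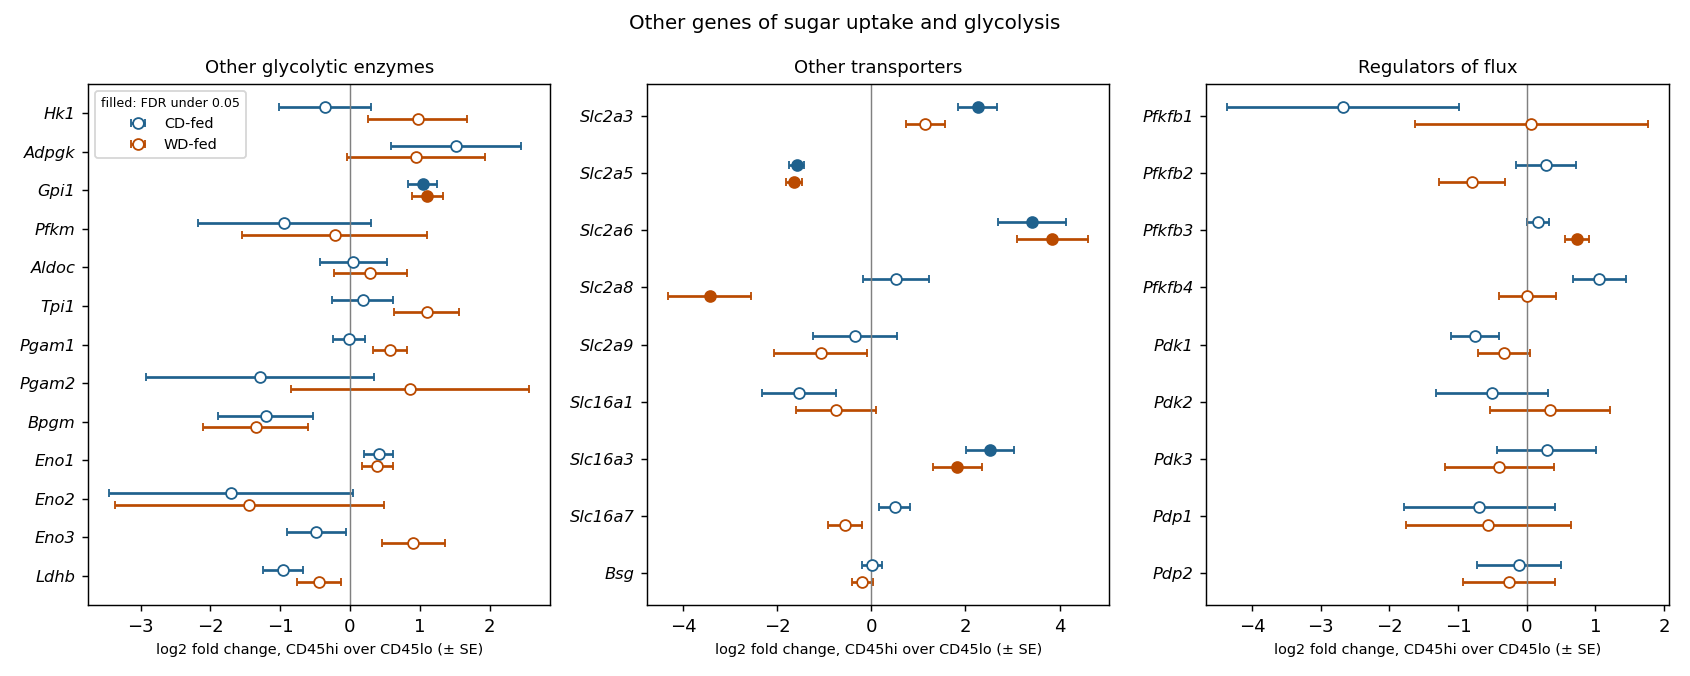
Log2 fold change, CD45hi over CD45lo, with its standard error for 13 other glycolytic enzymes, 9 other transporters and 9 regulators of flux in CD-fed and WD-fed mice, where a filled point has an FDR under 0.05 by the test for any change. Slc2a5 is filled and negative on both diets, Slc2a6, Slc16a3 and Gpi1 are filled and positive on both diets, Slc2a3 is filled on the CD, and Slc2a8 and Pfkfb3 are filled on the WD.

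Of 11 regulators of glycolytic flux, 9 could be tested and the 1.5-fold test called none on either diet. Pfkfb3, which makes the activator of phosphofructokinase, stood at 205 to 250 cpm in CD45lo and 336 to 456 cpm in CD45hi cells of WD-fed mice (0.73 ± 0.172, FDR = 0.0112 for any change), and its CD-fed groups differed by 0.17 ± 0.160 (FDR = 0.644). None of 7 genes of the pentose phosphate pathway and none of 8 genes of pyruvate entry into mitochondria were called on either diet. In glycogen metabolism 1 of 10 was called higher on the CD and 1 lower on the WD. These were Pygl, glycogen phosphorylase (2.83 ± 0.547, 1.5-fold FDR = 0.00787), and Pgm1, phosphoglucomutase (-3.16 ± 0.768, 1.5-fold FDR = 0.0277), whose lowest library held 1 count. By the test for any change, Pygl (2.13 ± 0.559, FDR = 0.0214) and Gyg (1.36 ± 0.391, FDR = 0.0365) were also higher on the WD. Pgm1 differed by 0.45 ± 0.621 on the CD (FDR = 0.778). Of 15 tested genes of the hypoxia-inducible factor and its targets outside glycolysis, none was called on the CD and Ero1l, an oxidase of protein folding, was called higher on the WD (1.46 ± 0.305, 1.5-fold FDR = 0.0310). By the test for any change, Hif1a was lower on the CD (-0.74 ± 0.217, FDR = 0.0442). On the WD, Egln1 (1.63 ± 0.436, FDR = 0.0245) and Ero1l (FDR = 0.00486) were higher by that test. The median log2 fold change of this list was 0.01 and 0.04. The list mixes the factor's own subunits and regulators with its targets, so its median does not measure the activity of the factor, which was not tested.

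The comparisons of the diets use the same libraries as those of the cell types. Between diets, none of the 10 members was called in either cell type. In CD45hi cells the WD over CD log2 fold changes ran from -0.37 ± 0.227 for Ldha to 1.24 ± 0.850 for Pfkp, and the lowest FDR was 0.381 for Pfkl. No member had an unadjusted p under 0.05, and 17.6% of all genes did. The edgeR test called 0.254% of all genes. Pfkl was the member whose CD45hi libraries did not overlap between the diets, at 31.4 to 39.7 cpm on the WD and 1.80 to 31.4 cpm on the CD (1.09 ± 0.624). The nearest libraries of the diets were apart by less than the rounding of these values. Of all genes tested, 2.58% were higher on the WD without overlap. The value of Pfkp was -1.29 without WD-fed CD45hi replicate 1. In CD45lo cells the range was -0.34 ± 0.293 for Pgk1 to 1.04 ± 0.814 for Pfkp, with no member at an unadjusted p under 0.05 (0.822% of all genes) and 0% of genes called. The fit shares its estimate of spread among all groups, and most genes varied less in CD45lo than in CD45hi libraries. The SEs and p-values in CD45lo cells therefore do not measure the spread of those libraries alone. DESeq2, limma-voom and a fit of only the compared groups also called 0 members in both cell types.

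The diet by cell type interaction, which asks whether the difference between the cell types was not the same on both diets, was called for none of the members and for 0.00668% of all genes. It ran from -0.48 ± 0.308 for Ldha to 0.79 ± 0.853 for Pfkl. No member reached an unadjusted p under 0.05, which 10.1% of all genes did. The CD45hi libraries were the more variable, with a median SD of log2 cpm over all genes of 0.892 and 0.914, against 0.350 and 0.395 in CD45lo cells on the CD and WD. Hk2 had an SD of 0.125 and 0.0576 in CD45lo cells, and Pfkl reached 1.88 in CD-fed and Pfkp 2.48 in WD-fed CD45hi cells.

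The genes whose log2 cpm followed Slc2a1 most closely over the 15 libraries, among 8252 other genes with a mean of at least 10 cpm, were Uba1 (Pearson r = 0.934), Itfg3 (r = 0.893) and Lbr (r = 0.879). For Hk2 they were Tmem44 (r = 0.941), Mr1 (r = 0.937) and Parvg (r = 0.932), and for Hk3 Churc1 (r = 0.945), Apobec3 (r = 0.873) and Casp4 (r = 0.872). The rank correlations (Spearman rho) of these genes were lower, from 0.579 for Apobec3 to 0.843 for Mr1. These values describe 15 libraries that share gates and diets, and no p-value was attached. They were not computed without the libraries that stood apart. Named retrocopies and pseudogenes of the members (Aldoart1, Aldoart2, Pgk1-rs7, Ldha-ps and Ldha-ps2) did not exceed 0.328 cpm in any library. These were found by symbol only, and copies under other names were not examined. None is a copy of Gapdh or Pfkp, whose counts were fractional in all 15 libraries.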

How the data were processed

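RNA-seq of sorted brain CD11b+ cells gave 15 libraries in 4 groups, which the labels define. The authors perfused the mice, dissociated brains with enzymes at 37 °C, made poly(A) libraries and quantified paired-end reads through RSEM 1.2.12 to mm10, per the labels and the study's methods. The annotation release, strand setting and platform of each library are not given in the sources used here. The deposited files hold expected counts, which are not normalized, and the TPM and FPKM that the authors derived from them.

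Expected counts were rounded, and a gene was tested if 2 or more libraries reached 1 cpm. Counts were scaled by TMM and fitted in edgeR 4.0.16 (R 4.3.3, earlier quasi-likelihood form) as 1 model of 4 groups. CD45hi and CD45lo cells were compared within each diet by glmTreat at 1.5-fold and by glmQLFTest, and the diets and the interaction by glmQLFTest, with Benjamini-Hochberg adjustment over all 14967 genes. The SE is the log2 fold change over the root of F. Log2 cpm used a prior count of 2. Fits were tried on simulated counts with 200 genes changed in CD45hi cells of both diets and the same spread in every group. The larger spread of the real CD45hi libraries was not simulated. The labels number the libraries without naming animals, so p-values measure the spread between libraries, which the fit estimates jointly over the groups.

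All 10 members are named, as are tested genes of the lists of enzymes, transporters and regulators, at most 4 called genes of each other list, and the 3 genes most like Slc2a1, Hk2 and Hk3. The members and lists were chosen with earlier results of these data known. Alternatives were DESeq2 1.42.0, limma-voom 3.58.1, other filters, scalings and fits, replicate blocks and leaving out each library. Scaling by total count, fits without mitochondrial genes and fits without the libraries that stood apart were chosen after seeing the data. FPKM served only for shares within families. Promoters came from RefSeq (GRCm38.p6).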

Additional observations from a re-analysis of the deposited data

Results flagged for a closer look

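Each member's values in each group of 4 libraries were examined for a library far from the others, by the gap to its nearest neighbour over the whole range of the group (Dixon's ratio, against its 95% limit). Of 30 groups, 2 went past the limit, and chance alone passes it in about 1 group in 20. In CD-fed CD45lo cells, Hk2 stood at 267 cpm in replicate 3 and at 224 to 225 cpm in the other 3 libraries, a ratio of 0.977. In WD-fed CD45lo cells, Pfkp stood at 8.18 cpm in replicate 4 and at 4.23 to 4.33 cpm in the others, a ratio of 0.975. No member had a diet by cell type interaction past the FDR limit.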

How the results depend on the processing

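None of the members was called between the diets or for the interaction under any of the alternatives, of which the block by file-name numbers cannot compare the diets. The count of members past 1.5-fold was 0 on both diets in the reported fit. With DESeq2 the fold limit was applied after the test. On the CD the count was 3 with DESeq2, and 1 with only the compared groups, with the fold limit applied after the test or with both libraries that stood apart left out. On the WD it was 3 with DESeq2, 2 with RLE size factors, with the edgeR 4 form or with the limit applied afterwards, and 1 without the low-count filter, with filterByExpr, with robust estimates or with counts not rounded. Leaving out single libraries gave 0 to 1 on the CD and 0 to 2 on the WD. The count changed at all was 1 on the CD, against 3 with DESeq2, 0 with limma-voom and 0 with the edgeR 4 form, and 0 to 2 without single libraries. On the WD it was 2, against 1 with limma-voom and 1 with only the compared groups, and 1 to 3 without single libraries.

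The file-name numbers of the CD45hi libraries recurred among the CD45lo libraries of the same diet, but the labels do not name animals. Libraries matched by title number had correlations of deviations from the group mean of -0.0217 to 0.0695, and by file-name number of -0.000466 to 0.0695. Such correlations over all genes cannot settle whether libraries came from the same mouse. The reported fit used no pairing. With a replicate block by titles the WD count changed at all was 1, and with a replicate block by file-name numbers 0. Under the title block, Pfkl between cell types on the WD was -0.06, and the interactions of Slc2a1 and Pfkp were 0 and -0.46. Under the file-name block, WD over CD was -0.22 for Pfkp and -0.06 for Aldoa in CD45hi cells, and 0.26 for Hk2, -0.36 for Pfkl, -0.09 for Aldoa and -0.01 for Gapdh in CD45lo cells, and the Pfkp interaction was -1.81. The blocks shifted the median of all genes between cell types to between -0.249 and -0.107, and limma-voom to -0.222 and -0.265.

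Other changes of sign were among values that missed the threshold. With limma-voom, Pfkp was -0.32 between the diets in CD45hi cells, and the interactions of Slc2a1 and Pfkp were -0.07 and -1.77. With total counts alone, the median of all genes between cell types was -0.198 on the CD and -0.314 on the WD, Pfkfb3 and Ero1l were -0.06 and -0.07 on the CD, Pfkl and Ldha were -0.12 and -0.21 on the WD, and the Gapdh interaction was -0.04. With both libraries left out, Ero1l was -0.04 on the CD, Pfkp and Pkm between diets in CD45hi cells were -1.25 and 0.15, and the interactions of Slc2a1, Pfkp and Pkm were -0.15, -2.30 and 0.28.

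Leaving out single libraries gave, between cell types, -0.05 to 0.85 for Slc2a8 and -0.04 to 0.32 for Ero1l on the CD and -0.04 to 0.18 for Ldha on the WD. Between diets in CD45hi cells it gave -0.40 to 0.27 for Slc2a1, -0.04 to 0.86 for Hk3, -1.29 to 1.78 for Pfkp, -0.20 to 0.53 for Aldoa and -0.01 to 0.52 for Pgk1, and -0.06 to 0.04 for Hk2 in CD45lo cells. The interactions ran from -0.18 to 0.49 for Slc2a1, -0.21 to 0.68 for Hk3, -2.33 to 0.74 for Pfkp, -0.29 to 0.45 for Aldoa, -0.13 to 0.21 for Gapdh and -0.33 to 0.09 for Pkm. The cause of these changes was not tested. Without 1 library the mean share in WD-fed CD45hi cells ran from 20.4% to 44.9% for Hk3 and from 26.1% to 57.7% for Pfkp.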
